A study of Mus musculus with 7 samples.

Results

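The genes described here are 10 immediate-early genes, namely Fos, Fosb, Jun, Junb, Jund, Egr1, Nr4a1, Atf3, Zfp36 and Ier2. They were found by gene name among the gene probes of the array, where 13 of 41174 probes belong to them, and all 10 are among the 17537 genes that entered the fit.

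The arrays measured RNA of sorted mouse intestinal epithelial cells. Each of the 7 arrays set one Cy3-labelled sorted sample beside a common Cy5 channel, RNA from the entire small intestine (called the intestine below). Of the 4 groups, 3 came from Dll1-EGFP-ires-CreERT2 mice, whose green fluorescent protein (GFP) is driven by the promoter of Dll1, a Notch ligand of early secretory cells. Cells with high GFP were split by the surface protein CD24 into low, medium and high fractions, with 2 arrays for each. The fourth group, a single array, held GFP-high cells of Lgr5-EGFP-ires-CreERT2 mice, in which the promoter of the crypt stem cell gene Lgr5 drives GFP. All 4 groups therefore carried a GFP and CreERT2 insertion, and neither age, strain background nor any treatment is stated in the labels. GFP outlasts the transcript that made it, so a GFP-high gate can hold cells that no longer express the marker gene.

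A level below is the log2 ratio of the sorted sample over whole small intestine on the same array, so a level of 0 equals the intestine and a step of 1 is a doubling. A gene was called when its Benjamini-Hochberg adjusted p in the limma fit over all genes was under 0.05. The series calls the paired Dll1 arrays biological replicates without tying them to animals, so the p-values measure the spread between these samples. One Lgr5 array has no spread of its own, and in every comparison with it the mouse line, the sort and the RNA preparation cannot be told apart. In bulk RNA, more cells of one kind and more RNA per cell cannot be told apart either.

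The sorting markers followed the labels in part. Cd24a, the gene of the gated protein, stood at -0.68 and -0.59 in CD24 low, 0.88 and 0.75 in CD24 medium, 3.34 and 3.47 in CD24 high, and -0.11 in Lgr5. Dll1 itself was at 2.52 to 2.81 on the low and medium arrays, but at 0.61 and -0.04 in CD24 high, against 0.88 in Lgr5. The stem cell gene Lgr5 was at -1.23 to -0.54 in the low and medium sorts and at 1.36 and 1.31 in CD24 high, against 2.51 in the Lgr5 sort. In the sample channel, 54.5% to 60.5% of gene spots were well above background on the low and medium arrays, 42.5% and 44.4% on the high arrays and 52.8% on the Lgr5 array.

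Immediate-early genes are transcribed within minutes of a stimulus, because the factors that switch them on are already present in the resting cell and need no new protein. Growth factor signalling reaches them through mitogen-activated protein kinases and serum response factor, and stress signalling through the kinases that phosphorylate Jun and the factors that bind cyclic AMP response elements. Fos and Jun proteins pair through leucine zippers to form the factor AP-1. Their messages are short-lived, and in tissues they are known to be induced while cells are being dissociated and sorted.

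The promoters were searched for sequence elements through which such signals are known to act. RefSeq promoter entries (GRCm38.p6) matched 8 of the 10 genes, and the 250 bases before each transcript start were searched on both strands. Those of 5 genes are printed 5′ to 3′ along the gene's own strand, chosen to show each kind of element that was found, the promoter with the most matches (Nr4a1) and the match nearest to a start (Atf3). Capitals mark TATAAA and the half-site TGACG in Fos, TGACATCA in Jun, the half-site in Nr4a1 and Atf3 (as its reverse complement CGTCA), and a CArG box, the serum response factor element, in Zfp36.
Fos (chr12:85473640-85473889, plus strand): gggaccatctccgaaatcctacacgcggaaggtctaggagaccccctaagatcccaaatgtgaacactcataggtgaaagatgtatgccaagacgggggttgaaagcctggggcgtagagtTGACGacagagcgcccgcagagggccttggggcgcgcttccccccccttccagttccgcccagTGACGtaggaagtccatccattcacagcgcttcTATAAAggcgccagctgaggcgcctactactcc
Jun (chr4:95052223-95052472, minus strand): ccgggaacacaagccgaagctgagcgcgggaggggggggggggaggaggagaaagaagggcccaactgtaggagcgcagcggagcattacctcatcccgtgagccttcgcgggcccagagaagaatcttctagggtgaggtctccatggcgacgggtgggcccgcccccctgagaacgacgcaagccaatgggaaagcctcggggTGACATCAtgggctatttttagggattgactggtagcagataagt
Nr4a1 (chr15:101266596-101266845, plus strand): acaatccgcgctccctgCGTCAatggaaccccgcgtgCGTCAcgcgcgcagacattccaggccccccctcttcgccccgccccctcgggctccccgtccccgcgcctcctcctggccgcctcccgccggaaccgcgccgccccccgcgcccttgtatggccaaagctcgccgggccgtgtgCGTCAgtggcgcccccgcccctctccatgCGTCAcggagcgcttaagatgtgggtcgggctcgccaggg
Atf3 (chr1:191183334-191183583, minus strand): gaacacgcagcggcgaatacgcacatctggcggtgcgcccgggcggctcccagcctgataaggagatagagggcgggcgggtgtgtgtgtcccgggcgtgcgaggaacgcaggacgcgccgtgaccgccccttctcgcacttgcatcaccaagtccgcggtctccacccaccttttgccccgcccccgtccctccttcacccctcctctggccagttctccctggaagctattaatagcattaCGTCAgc
Zfp36 (chr7:28379229-28379478, minus strand): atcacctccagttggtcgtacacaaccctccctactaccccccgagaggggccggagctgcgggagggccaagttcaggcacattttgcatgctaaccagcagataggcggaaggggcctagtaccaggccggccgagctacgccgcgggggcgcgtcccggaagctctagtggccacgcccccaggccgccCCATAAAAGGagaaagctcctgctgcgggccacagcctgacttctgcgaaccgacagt

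The half-site TGACG, part of the full cyclic AMP response element TGACGTCA, was found in 5 of the 8 promoters (Fos, Fosb, Junb, Nr4a1 and Atf3), against 17.8% of all 32851 promoters of the same length. Nr4a1 held it 4 times, at 233 to 229, 213 to 209, 69 to 65 and 40 to 36 bases before the start. The full element was in 0 of the 8, against 1.55% of all promoters, and the AP-1 element TGANTCA was also in 0 of the 8, against 6.75%. TGACATCA, at 45 to 38 bases before the Jun start, was in 2.93% of promoters. The CArG box of Zfp36 lay 58 to 49 bases before the start and such a box was in 1.47% of promoters. Fos alone of the 8 held TATAAA, found in 12.4% of promoters, and the Egr element GCGTGGGCG was in 0 of the 8, against 0.536%. The half-site and TGACATCA were chosen for the search after the sequences had been seen, and a match describes letters, not binding.

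All 10 genes stood above whole small intestine on every Dll1 array that measured them, and 8 of the 10 stood below it on the Lgr5 array. The median level of the genes was 2.10 and 2.48 on the low arrays, 3.17 and 2.62 on the medium arrays, 4.48 and 3.14 on the high arrays, and -1.11 on the Lgr5 array. Among all genes of an array, 5 and 5 of them lay in the top 1% on the low arrays, 6 and 5 on the medium arrays, 7 of 10 and 4 of 9 on the high arrays, and 0 on the Lgr5 array. Fosb, Egr1, Nr4a1 and Atf3 were in the top 1% on each of the 6 Dll1 arrays. With the probe used in the fit, every gene was highest on the first CD24 high array and lowest on the Lgr5 array, as the plot of levels by array shows.

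**Figure D1:**
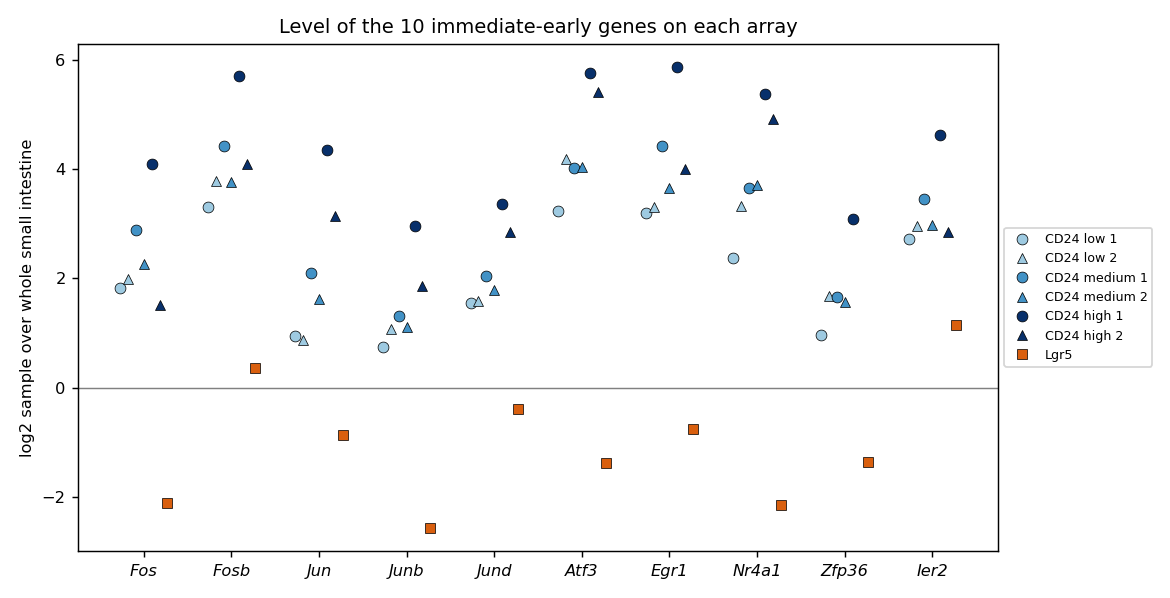
Level of each of the 10 genes on each of the 7 arrays, as the log2 ratio of the sorted sample over whole small intestine, with each point standing for 1 array. For every gene the first CD24 high array is the highest point and the Lgr5 array the lowest; the median level is 4.48 on that array and -1.11 on the Lgr5 array.

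Fos, the prototype AP-1 subunit, is represented by a probe at chr12:86817900-86817959 (mm9, plus strand). It stood at 1.82 and 1.99 in CD24 low, 2.88 and 2.26 in CD24 medium, 4.10 and 1.51 in CD24 high, and -2.12 in Lgr5. The CD24 high arrays lay on either side of all the other Dll1 arrays, and the Lgr5 array lay far below each of them. Fos is printed in 10 spots on each array, and the spots of an array had SDs of 0.02 to 0.07, which is error within an array and holds no spread between sorts. The mean over the Dll1 groups was 23.4-fold above Lgr5 (log2 difference 4.55, SE 0.81, adjusted p = 0.00858).

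Fosb, a second Fos-family partner of Jun, stood at 3.30 and 3.77 in CD24 low, 4.42 and 3.75 in CD24 medium, 5.70 and 4.08 in CD24 high, and 0.37 in Lgr5. It was one of 2 genes of the group above the intestine in the Lgr5 sort. The ranges of the medium and high arrays overlapped, and so did those of the low and medium arrays. Dll1 cells exceeded Lgr5 cells 14.0-fold (log2 difference 3.81, SE 0.56, adjusted p = 0.00456).

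Jun, the partner that binds DNA with Fos and is activated by the Jun N-terminal kinases, is represented by a probe at chr4:94715864-94715923 (mm9, minus strand). It stood at 0.94 and 0.88 in CD24 low, 2.10 and 1.62 in CD24 medium, 4.34 and 3.14 in CD24 high, and -0.87 in Lgr5. These arrays fell into the order low, medium, high with no overlap between any of the groups. The Dll1 mean was 8.23-fold above Lgr5 (log2 difference 3.04, SE 0.42, adjusted p = 0.00358).

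Junb, a Jun-family member that can restrain Jun, stood at 0.75 and 1.08 in CD24 low, 1.31 and 1.11 in CD24 medium, 2.95 and 1.86 in CD24 high, and -2.56 in Lgr5. A second probe that overlaps the first gave 0.52 and 0.95, 1.18 and 0.93, 2.56 and 1.39, and -3.03 in the same groups. Both probes put the Lgr5 array lowest and the first high array highest. Dll1 cells exceeded Lgr5 cells 16.9-fold (log2 difference 4.08, SE 0.38, adjusted p = 0.00104).

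Jund, the Jun-family member that resting cells usually keep on, stood at 1.56 and 1.59 in CD24 low, 2.05 and 1.78 in CD24 medium, 3.36 and 2.85 in CD24 high, and -0.40 in Lgr5. Its groups did not overlap, and its spread within groups (SD 0.02, 0.19 and 0.36, n = 2 each) was the smallest of the Jun family for CD24 low and CD24 high. From the sample channel alone, its limma difference against CD24 high shrank. It went from -1.54 to -0.62 in CD24 low (adjusted p = 0.0459) and from -1.19 to -0.26 in CD24 medium (adjusted p = 0.308). The Dll1 mean was 6.04-fold above Lgr5 (log2 difference 2.59, SE 0.23, adjusted p = 0.00097).

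Atf3, a stress-induced bZIP factor that pairs with Jun proteins, is represented by a probe at chr1:192994547-192994606 (mm9, minus strand). It stood at 3.23 and 4.19 in CD24 low, 4.02 and 4.03 in CD24 medium, 5.76 and 5.41 in CD24 high, and -1.38 in Lgr5. The low arrays spanned the medium arrays, while both high arrays were above all the others. Dll1 cells exceeded Lgr5 cells 56.4-fold (log2 difference 5.82, SE 0.34, adjusted p = 0.000315), which ranked 6 among 17481 genes from the most positive difference downward.

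Egr1, a zinc-finger factor induced through serum response factor, stood at 3.19 and 3.30 in CD24 low, 4.43 and 3.66 in CD24 medium, 5.87 and 4.00 in CD24 high, and -0.75 in Lgr5. Its low arrays were below its medium arrays, and the medium arrays overlapped the high ones. On the second medium array its reference signal was 3270, against 6304 to 6863 on the other arrays. From the sample channel alone, CD24 low against CD24 medium was -0.27 on the log2 scale, against -0.80 with the ratio. The Dll1 mean was 28.3-fold above Lgr5 (log2 difference 4.82, SE 0.62, adjusted p = 0.00301).

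Nr4a1, an orphan nuclear receptor whose activity is set largely by how much of it is made, is represented by a probe at chr15:101105071-101105130 (mm9, plus strand). It stood at 2.38 and 3.33 in CD24 low, 3.65 and 3.71 in CD24 medium, 5.37 and 4.92 in CD24 high, and -2.14 in Lgr5. No groups overlapped. Its Dll1 mean was 65.5-fold above Lgr5 (log2 difference 6.03, SE 0.35, adjusted p = 0.00031), the largest difference of the 10 genes and rank 4 among all 17481.

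Zfp36, which encodes tristetraprolin, a protein that binds AU-rich messages and speeds their decay, stood at 0.96 and 1.67 in CD24 low, 1.66 and 1.58 in CD24 medium, 3.08 on the first CD24 high array, and -1.35 in Lgr5. Its spot on the second high array was flagged as an outlier by the scanner software and was left out. With that spot kept, the array gave 1.94. A second probe stood at 0.40 and 0.71, 1.10 and 1.00, 1.90 and 0.16, and -0.50 in the same groups, with the Lgr5 value not well above background. Dll1 cells exceeded Lgr5 cells 10.2-fold with the first probe (log2 difference 3.36, SE 0.29, adjusted p = 0.00152).

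Ier2, a small nuclear immediate-early protein, stood at 2.73 and 2.96 in CD24 low, 3.46 and 2.97 in CD24 medium, 4.62 and 2.85 in CD24 high, and 1.15 in Lgr5. It was the highest of the 10 genes in the Lgr5 sort. The second probe gave 1.91 and 3.01, 3.11 and 2.29, 3.56 and 1.25, and 1.63, so with it the second high array fell below the Lgr5 array. The difference of 2.11 with the first probe (SE 0.58, 4.33-fold, adjusted p = 0.0343) was the smallest of the 10, and it lost its call in several alternative settings, with an adjusted p of 0.151 when both probes were averaged.

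Set against the Lgr5 sort as a whole, all 10 genes were higher in the Dll1 sorts, where 17.5% of the 17481 genes tested were called higher. Their arrays did not overlap for 10 of 10, against 34.3% of all genes that lay wholly above the Lgr5 array. The median difference of the genes was 3.94, beside 0.13 over all genes. Against Lgr5, the median difference was 3.33 for CD24 low (range 1.69 to 5.09), 3.75 for CD24 medium (2.07 to 5.82) and 4.77 for CD24 high (2.59 to 7.28). The first medium, first high and Lgr5 arrays were printed on one slide. Within it all 10 genes were above Lgr5, by a median of 3.96 in the medium array and 5.43 in the high array.

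**Figure D2:**
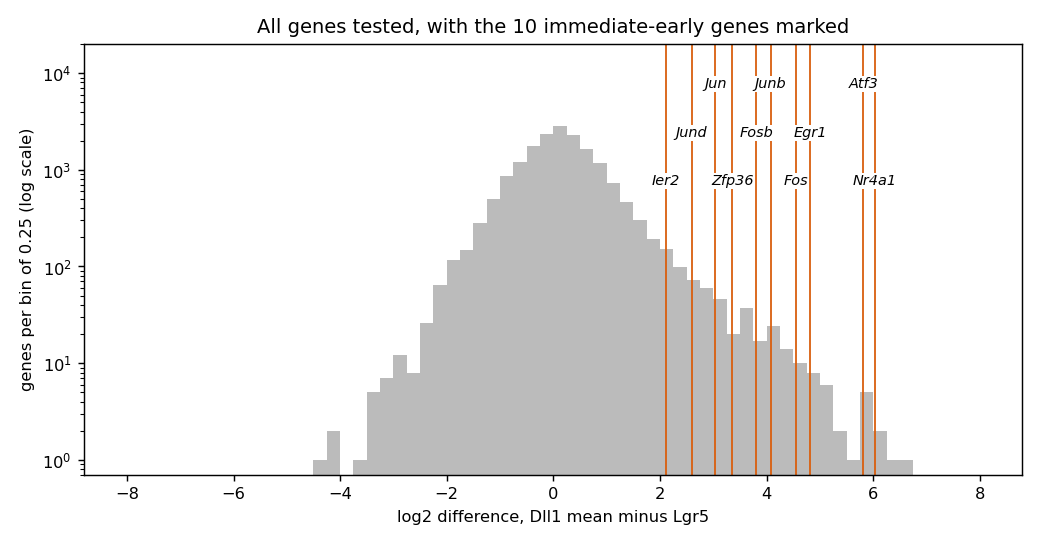
Distribution over all genes tested of the log2 difference between the Dll1 mean and the Lgr5 array, with the 10 immediate-early genes marked. The genes lie between 2.11 and 6.03, to the right of the bulk of genes, whose median is 0.13.

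Between the CD24 sorts, the group mean was lowest in CD24 low and highest in CD24 high for 10 of 10 genes, but not every step was larger than the spread. In CD24 low against CD24 high, 6 genes were lower, namely Jun, Nr4a1, Atf3, Zfp36, Jund and Junb, where 11.2% of all 17537 genes were called lower. Jun differed 7.11-fold (log2 difference -2.83, SE 0.39, adjusted p = 0.00462), Nr4a1 4.89-fold (-2.29, SE 0.32, adjusted p = 0.00534) and Atf3 3.66-fold (-1.87, SE 0.32, adjusted p = 0.0103). Zfp36 (-1.76, adjusted p = 0.0195, with 1 high array), Jund (-1.54, 0.00506) and Junb (-1.49, 0.0323) had smaller differences. The low arrays lay wholly below the high arrays for 8 of the 10, against 30.3% of all genes, and Fos and Ier2 overlapped. With its outlier spot kept, Zfp36 did not pass (-1.19, adjusted p = 0.0927). Egr1 (-1.69), Fosb (-1.35), Fos (-0.90) and Ier2 (-0.89) did not pass, with adjusted p from 0.0943 to 0.44. The median difference was -1.61, beside 0.02 over all genes.

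In CD24 medium against CD24 high, 5 genes were lower, against 13.3% of all genes, and these were Jun (-1.88, 3.69-fold, adjusted p = 0.0191), Atf3 (-1.56, 0.0185), Zfp36 (-1.46, 0.0315), Nr4a1 (-1.46, 0.0248) and Jund (-1.19, 0.0129). For 6 of the 10 the medium arrays lay wholly below the high arrays, against 34.1% of all genes. Junb had a difference of the same size as Jund, -1.19, but its arrays spread more and its adjusted p was 0.0571. Egr1 (-0.89), Fosb (-0.80), Ier2 (-0.52) and Fos (-0.23) did not pass, with adjusted p from 0.313 to 0.849. The median difference was -1.19, beside 0.01 over all genes. With its outlier spot kept, Zfp36 did not pass here either (-0.89, adjusted p = 0.168). Leaving out the first medium array gave a median difference of -1.31, and leaving out the second -1.08, each with a lone medium array. When only the sample channel was fitted, the median difference was -0.80, beside 0.09 over all genes. In that limma fit Atf3 (-1.10, adjusted p = 0.0599), Nr4a1 (-0.95, 0.0693) and Jund (-0.26, 0.308) did not pass. Jun (-1.81, 0.0222) still passed, as did Zfp36.

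In CD24 low against CD24 medium, 0 of the 10 genes were called by limma, where 0.114% of all genes were called. At an unadjusted p under 0.05 there were 2 of 10, Jun (-0.95) and Nr4a1 (-0.83), against 10.6% of all genes. All 10 differences were negative, between -0.95 and -0.30 with a median of -0.46, and for 7 of the 10 the low arrays lay wholly below the medium arrays, against 19% of all genes. Since the 3 comparisons share arrays, their differences are not independent of each other.

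**Figure D3:**
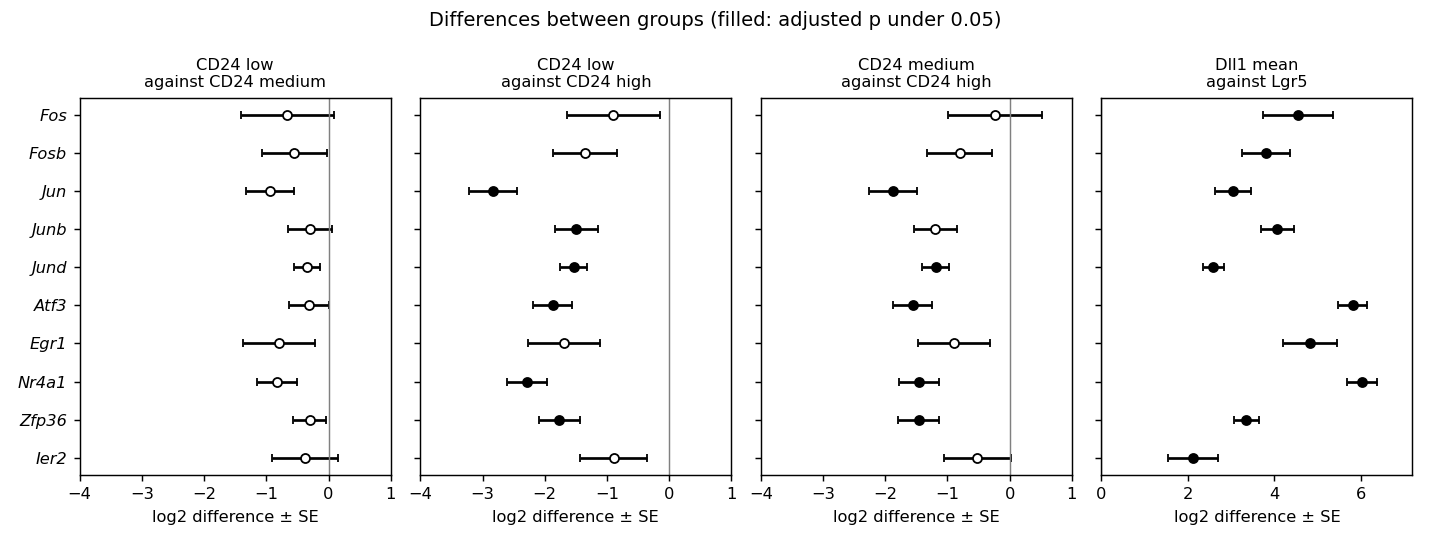
Log2 difference with its standard error for each of the 10 genes in the 4 comparisons, with filled circles for differences that passed the test. The differences against Lgr5 run from 2.11 to 6.03, while those between CD24 levels are all negative, from -2.83 to -0.23.

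The genes differed most between the replicates of CD24 high. The first high array exceeded the second for 9 of 9 genes measured on both, and for 59% of all genes. The median gap was 1.20, beside a median size of 0.21 over all genes. Fos differed by 2.59, Egr1 by 1.87, Ier2 by 1.78 and Fosb by 1.61, whereas Nr4a1 and Atf3 differed by only 0.45 and 0.35. The medium replicates were nearer, with the first array higher for 8 of 10 genes, and for 45.8% of all genes. The median gap was 0.37, beside a median size of 0.18 over all genes. In CD24 low the second array was higher for 9 of 10 genes, while the first was higher for 48.4% of all genes. The median of the first minus the second was -0.28, beside a median size of 0.23 over all genes. Without the first high array, the median difference was -0.94 in CD24 low and -0.65 in CD24 medium against CD24 high. Without the second, these medians were -2.10 and -1.65. Either way CD24 high was a single array, so only sizes are given. Fos turned positive without the first high array, to 0.40 in CD24 low against CD24 high, where 8 genes were negative. In CD24 medium against CD24 high, 4 genes were then positive and 5 negative. The positive ones were Fos at 1.06, Ier2 at 0.37, Egr1 at 0.0461 and Fosb at 0.0018. The first high array was on the slide with the first medium and Lgr5 arrays, and the second was on the other slide with both low arrays and the second medium array. Within that other slide, the median difference in CD24 low against CD24 high was -0.94, with 1 gene positive and 8 negative. In CD24 medium against CD24 high it was -0.74, with 2 positive and 7 negative. That slide holds 1 medium and 1 high array, so its only spread came from the 2 low arrays. Within the slide of the first arrays, where there is no replicate for a test, all 10 genes were lower in the medium than in the high array, by a median of 1.43 on the log2 scale (-1.43). With the slide as a term in the fit, the differences of CD24 low against CD24 medium were positive for 4 of the 10 genes. The part of the slide, the sort or the mice in this spread was not tested.

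Cell-type markers moved with the CD24 comparisons. Over all genes, 11.2% were called lower in CD24 low and 13.3% in CD24 medium against CD24 high. Of 11 Paneth cell markers, 10 were called lower in CD24 low and 11 in CD24 medium against CD24 high, and their summed sample signal was 40989 to 49263 in CD24 low, 143529 to 159974 in CD24 medium, 849702 to 872266 in CD24 high and 31176 in Lgr5. Enteroendocrine markers went another way, and 13 of 15 exceeded CD24 high in the CD24 medium sort, where 7.52% of all genes did. In CD24 low against CD24 high, 5 of 10 crypt stem and 4 of 8 tuft markers were lower. Of 9 goblet markers, 5 were higher and 1, Spink4, was lower, against 6.84% of all genes called higher and 11.2% lower. In CD24 medium against CD24 high, 5 of 10 crypt stem and 8 of 18 immune markers were lower. Of 10 mesenchymal, endothelial and muscle markers, 6 were lower and 1 higher. Among those lower, Cd8a, Ms4a1, Gzma and Col1a1 were well above background on 0 of the 2 high arrays, and Csf1r on 1. The summed immune signal was 6448 to 7401 in CD24 low, 18219 to 19590 in CD24 medium, 75143 to 79552 in CD24 high and 7759 in Lgr5. The immune list shares Lyz2 with the Paneth list. Lyz2 stood at 4.48 and 4.72 on the high arrays, where the median level of the immune list was -1.05 and -0.59. Such sums add raw sample intensities without normalisation. Against Lgr5, goblet markers were higher in Dll1 cells for 9 of 9, and crypt stem markers lower for 8 of 10. In that comparison 5 of 18 immune markers, Lyz2 among them, were higher and 1 lower, and 6 of 10 mesenchymal, endothelial and muscle markers were higher, beside 17.5% higher and 13.3% lower over all genes. Summed mesenchymal signal was 4809 and 6178 in CD24 low, 5441 and 8554 in CD24 medium, 2521 and 2283 in CD24 high and 3747 in Lgr5. All genes of that list lay below the intestine on the Lgr5 array. No marker on an array reads 0, and the part of these cells in the immediate-early levels was not tested.

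Many other immediate-early genes were also higher in Dll1 than in Lgr5 cells. Of 37 measured from a list of 42, 26 were higher and 2 lower, where 17.5% of all genes were higher and 13.3% lower. Their median difference was 1.38. Klf4, a factor of differentiating epithelium, was 44.5-fold higher in Dll1 cells (log2 difference 5.47, adjusted p = 0.000159). Gadd45g, a stress-induced growth arrest gene, was 20.3-fold higher and Egr2, a relative of Egr1, 14.6-fold. Csrnp1, an Axin-induced nuclear protein, was 13.9-fold higher. The lower ones were Myc, a transcription factor of cell growth, and Cebpd, by 1.76 and 0.91 on the log2 scale. Myc is itself an immediate-early gene, with levels of -1.45 to -1.11 on the Dll1 arrays, against 0.46 on the Lgr5 array.

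The same list split between CD24 levels. In CD24 low against CD24 high, 11 of the 37 were lower and 1 higher, beside 11.2% lower and 6.84% higher over all genes. In CD24 medium against CD24 high 8 were lower and 3 higher, beside 13.3% and 7.52%. Gadd45g was 9.03-fold lower in CD24 low and 3.99-fold lower in CD24 medium than in CD24 high. Egr4 and Arc, activity-induced genes, ran opposite to the 10 genes in CD24 medium against CD24 high, where they were 16.9-fold and 8.22-fold higher, although Egr4 was well above background on only 1 of the 2 high arrays. The bZIP list of 17 genes outside the 10 had 9 higher against Lgr5, where 17.5% of all genes were. Maff was 11.5-fold and Mafk 5.54-fold higher, both small Maf factors, and Atf4, the effector of the integrated stress response, 3.94-fold. The median difference of the list was 0.69.

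Feedback and stress genes were set beside them, where 17.5% of all genes were higher and 13.3% lower in Dll1 than in Lgr5 cells. Of 11 dual-specificity phosphatase and Sprouty genes, which restrain the kinases, 5 were higher and 0 lower in Dll1 cells, with Dusp1 19.5-fold (adjusted p = 0.00664) and Dusp6 9.35-fold higher. Dusp10 was not well above background on the Lgr5 array and was at least 3.39-fold higher. Among 14 kinases and upstream factors 6 were higher and 0 lower, by small amounts such as 2.71-fold for Elk3, a partner of serum response factor, and 2.25-fold for Mapk3. The integrated stress response list, of Atf4 and genes that lie downstream of it, had 8 of 10 higher against Lgr5, with a median of 2.26. Its Nupr1 was 34.0-fold and Ppp1r15a 13.2-fold higher, and Chac1 was at least 13.9-fold higher. In that list 8 of 10 were lower in CD24 low than in CD24 high, against 11.2% of all genes. In CD24 medium 5 of 10 were lower than in CD24 high, against 13.3%. Nupr1 is also on the Paneth list and Atf4 on the bZIP list.

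Heat shock genes, which encode chaperones and are induced when proteins misfold, were called at shares near those of all genes. Of 16, 3 were higher and 2 lower in Dll1 than in Lgr5 cells, where 17.5% of all genes were higher and 13.3% lower, and their median difference was -0.20. Hsf1, the heat shock factor, was 5.90-fold higher and Bag3, a chaperone partner, 2.75-fold higher, while Hspe1 and Hspd1, the mitochondrial chaperonins, were 3.54-fold and 2.32-fold lower. Hspa1a, an inducible Hsp70 gene, stood at 4.02 and 3.18 in CD24 low, 3.69 and 2.48 in CD24 medium, 3.43 and 1.51 in CD24 high, and 3.41 in Lgr5. The Lgr5 array thus lay inside the range of the Dll1 arrays for Hspa1a, whose near-identical copy Hspa1b gave 3.08 and 2.82, 3.02 and 1.66, 2.55 and 0.95, and 2.80 in the same groups. Neither copy passed the test in any comparison, with adjusted p of 0.739 for Hspa1a and 0.622 for Hspa1b against Lgr5.

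**Figure D4:**
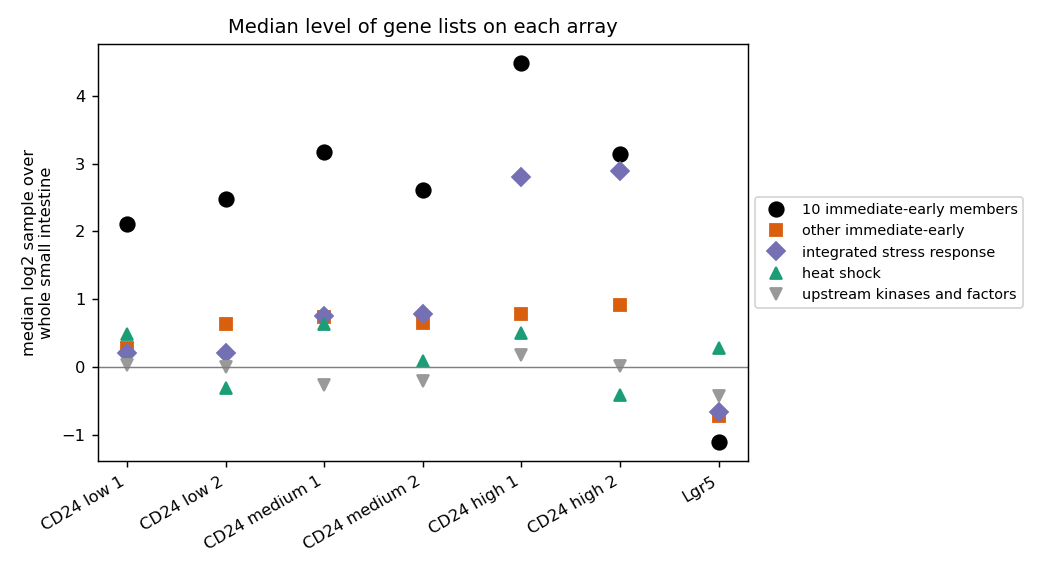
Median level on each array of the 10 genes and of the other immediate-early, integrated stress response, heat shock and upstream kinase and factor lists. Levels are log2 ratios over whole small intestine. The 10 genes run from 2.10 to 4.48 on the Dll1 arrays and stand at -1.11 on the Lgr5 array, whereas the heat shock list lies between -0.42 and 0.64 on all 7.

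The genes most like the group were sought by the root mean square (RMS) difference between centred profiles over the 7 arrays, against the mean profile of the 9 members measured on every array. Btg2, an antiproliferative immediate-early gene, was nearest at an RMS difference of 0.34 log2 units. Its levels were 1.32 and 1.83 in CD24 low, 2.26 and 2.37 in CD24 medium, 4.12 and 2.54 in CD24 high, and -0.84 in Lgr5, so it shared the gap between the high arrays. Egr2 was next at 0.35, followed by Klhdc8a at 0.40, Ppp1r15a at 0.41 and Qsox1 at 0.45. Hpd, Elapor1, Npdc1, Gpt2 and Klf6 completed the nearest 10 genes with values up to 0.49. The 9 members themselves differed from their own mean profile by 0.12 for Junb up to 0.78 for Nr4a1, and Fos, Jun, Jund, Atf3 and Ier2 also lay further from it than these 10 genes. Unlike Btg2, Qsox1 had nearly equal levels on the high arrays, 4.34 and 4.27.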

How the data were processed

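Per the labels' protocols, total RNA of sorted cells (Trizol) was amplified, labelled with Cy3 and hybridised beside Cy5-labelled intestinal RNA on Agilent whole-genome mouse arrays. Per the file headers, the deposited files hold spot intensity values and log10 ratios from Feature Extraction 10.5.1.1, with probe coordinates of build mm9; what else the authors did is not given in the sources used here. The deposited log10 values of the whole series equal minus the scanner's red over green log ratio, that is, sample over reference. The dyes were never swapped, so a dye effect cannot be told apart from sample against reference within an array, but it is shared by all arrays.

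Mean intensity was background-corrected with normexp (offset 50) and normalised by loess within each array (span 0.3). Control and outlier spots were left out, spots of a probe averaged, probes kept if well above background in the sample channel on 2 or more arrays, and the brightest probe taken for a gene. Of the probes, 26918 were named through their accession in RefSeq and 14256 kept the file's name. limma 3.58.1 (R 4.3.3, with version 1.17.8 of data.table) fitted 1 mean per group over all 7 arrays, with Benjamini-Hochberg adjustment over all genes; 3 residual degrees of freedom, 1 Lgr5 array and 2 arrays per Dll1 group limit the precision. The fit was tested on simulated data. Figures were drawn with Python 3.11.15 and matplotlib 3.10.9.

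The 10 genes and all gene lists were chosen with earlier results of these data known. Beyond the 10 genes, the text names up to 4 called genes with the largest difference per pathway list and comparison, the 10 nearest profiles, and the gate genes; Myc, Cebpd, Hspa1a and Hspa1b were named after their values were seen. Bounds ("at least") compare the Dll1 mean with the higher of the dim probe's own signal and the lowest signal well above background on the Lgr5 array. Tuft, enterocyte and erythroid markers were also listed. Against Lgr5, 3 of 8 tuft and 8 of 12 enterocyte markers were higher, beside 17.5% of all genes. Of 3 erythroid markers 1 was lower, beside 13.3%. Alternatives covered background, offset, scaling, filters, probes, slide, replicate block, trend and each array left out.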

Additional observations from a re-analysis of the deposited data

How the results depend on the processing

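The Lgr5 comparison kept every direction that could be estimated (9 genes without the first high array, 10 otherwise), with 8 to 10 genes called. Ier2 lost its call with processed signals (adjusted p = 0.0643), the deposited ratios (0.0661), no dim filter (0.055), an intensity trend (0.0515), without the second low array (0.0513) or the first medium array (0.0544), and with both probes averaged (0.151), where Zfp36 lost its call too (0.0724). In CD24 low against CD24 high, 3 genes were called on slide 2 alone and 3 to 10 with an array left out. In CD24 medium against CD24 high, 2 were called from the sample channel alone, 1 on slide 2 alone, 3 with the trend and 0 to 7 with an array left out. Slide 2 holds 1 medium and 1 high array, so its spread comes from the low arrays alone, and a group left with 1 array is assumed to vary like the others.

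Signs turned in few settings, and the cause was not tested. Averaging probes gave Zfp36 0.009 in CD24 medium against CD24 high. With the slide as a term, CD24 low against CD24 medium gave Fos 0.14, Fosb 0.0195, Ier2 0.19 and Junb 0.025. On slide 2 alone Fos was 0.40 in CD24 low and 0.75 in CD24 medium against CD24 high, and Ier2 0.13 in the second of these. With an array left out, CD24 low against CD24 medium ran from -0.79 to 0.17 for Atf3 and from -0.66 to 0.054 for Zfp36. CD24 low against CD24 high ran from -2.19 to 0.40 for Fos. CD24 medium against CD24 high ran from -1.53 to 1.06 for Fos, -1.82 to 0.0461 for Egr1, -1.61 to 0.0018 for Fosb and -1.41 to 0.37 for Ier2. In the comparisons with CD24 high, each of these upper ends came without the first high array. Those of Atf3 and Zfp36 in CD24 low against CD24 medium came without the first low array.

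The replicate numbers paired the arrays only in part. Deviations of arrays with the same number correlated at 0.48 for low and medium, -0.01 for low and high and 0.30 for medium and high. The replicate block left the calls at 0, 6 and 5. The quantile scaling leaves ratios unchanged by construction. No paired fit was made against Lgr5, whose array carries no number, and slide 1 alone gives values without a test.

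Over all genes, calls in CD24 low against CD24 high numbered 3164, against 5034 without background subtraction, 5679 from processed signals, 5598 from the deposited ratios, 1321 on slide 2 alone and as few as 1682 with an array left out. In CD24 medium against CD24 high they numbered 3654, against 1003 on slide 2 alone and as few as 1259 with an array left out. In CD24 low against CD24 medium they numbered 20, against 9 to 41 over the alternatives, and against Lgr5 5389, or 3477 with the slide as a term. Processed signals moved the median of all genes to 0.24 in CD24 low and 0.21 in CD24 medium against CD24 high, and to -0.02 against Lgr5. The smaller share of spots well above background on the high arrays limits what can be measured of dim genes there.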
